A study of Mus musculus with 12 samples.

Results

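The 37 genes described here encode the machinery of the cell cycle and of DNA replication: cyclins and their kinases, the helicase that opens replication origins, enzymes that supply nucleotides, and the kinases, motors and checkpoint proteins of mitosis. They are a list of names, and each was read on the brightest probe set that the platform annotation gives to that symbol alone. On this rule 30 of the 37 genes were measured, out of 18820 genes in all. Ccne2, Foxm1, Tyms, Ube2c, Kif20a and Nusap1 lay only on probe sets shared with another symbol, and Ccnb1 was on no named probe set, so these 7 genes have no value here.

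RNA came from primary hepatocytes and from whole liver of 6 male C57BL/6 mice aged 7 to 8 weeks, each of which gave both samples, on 12 one-colour whole-transcript arrays. The 4 groups of 3 arrays were JNKΔhepa hepatocytes, WT hepatocytes, JNKΔhepa liver and WT liver. JNKΔhepa mice carry Jnk1Δhepa, a floxed Jnk1 deleted by Albf-Cre, together with Jnk2-/-. Albf-Cre is driven by the promoter of albumin with enhancer elements of alpha-fetoprotein, so Jnk1 is removed from cells in which those elements have been active, while Jnk2 is missing from every cell of the animal. The WT mice were Jnk1f/fJnk2+/+ littermates; both genotypes therefore derive from the floxed Jnk1 allele, and whether the WT mice carried Cre is not stated. The mice were on chow and received no treatment that the labels name, and how the hepatocytes were isolated and for how long they were kept is also not stated in the labels.

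Hepatocytes of an adult liver rest outside the cycle and re-enter it after loss of liver tissue. Re-entry starts with cyclin D1, whose kinases CDK4 and CDK6 release E2F factors from RB proteins; E2F factors then switch on the genes of origin licensing and of nucleotide supply, and a later wave, driven by B-MYB and FOXM1 with the DREAM complex as its repressor, switches on the genes of G2 and mitosis. JNK1 and JNK2 phosphorylate c-JUN, a factor that activates the cyclin D1 gene, which is why these genes are of interest in liver without JNK.

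The deposited values are RMA values on a log2 scale, on which a difference of 1 is a 2-fold difference. The arrays of a group correlated at 0.986 to 0.993 over all probe sets. Mapk9, the gene of JNK2, read 2.29 to 2.62 on the JNKΔhepa hepatocyte arrays, against 7.74 to 8.10 on the WT hepatocyte arrays. It read 2.33 to 3.02 on the JNKΔhepa liver arrays, against 8.59 to 8.69 on the WT liver arrays, so every array went with its label for Jnk2. Mapk8, the gene of the floxed Jnk1, read 4.95 to 5.01 on the JNKΔhepa hepatocyte arrays, against 5.51 to 5.66 on the WT hepatocyte arrays. In liver it read 5.93 to 6.07 on the JNKΔhepa arrays, against 6.37 to 6.40 on the WT arrays. Whether its probes lie in the deleted part was not checked here. Array medians were 3.22 to 3.28 in hepatocytes and 4.09 to 4.12 in liver, so the tissues appear to have been normalised separately and deposited levels are not set against each other across tissues. The mean of 9 measured hepatocyte markers lay between 11.8 and 12.1 on all arrays. In bulk RNA, fewer cells of a type and less RNA per cell cannot be told apart.

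One array stood apart for these genes and is named before the results. The second WT hepatocyte array read highest of the 6 hepatocyte arrays in 24 of the 30 genes, while it was highest in 13.0% of all genes. It read above both other WT hepatocyte arrays in 29 of the 30 genes, Ccnd1 being the exception, and in 5565 of all 18820 genes. It exceeded the mean of the other 2 by more than 1 on the log2 scale in 8 of the 30 genes (26.7%), against 0.292% of all genes. The mean level of the 30 genes was 3.98, 4.22 and 4.24 on JNKΔhepa hepatocyte arrays 1, 2 and 3, against 4.13, 4.76 and 4.14 on WT hepatocyte arrays 1, 2 and 3. In liver the same mean was 4.84, 4.69 and 4.89 on the JNKΔhepa arrays, against 5.02, 4.88 and 4.96 on the WT arrays, with the second JNKΔhepa array lowest of the 6 in 14 of the 30 genes. Several counts and differences in hepatocytes are given with and without the second WT hepatocyte array. Other hepatocyte counts are given with all arrays only and may depend on that array.

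**Figure D1:**
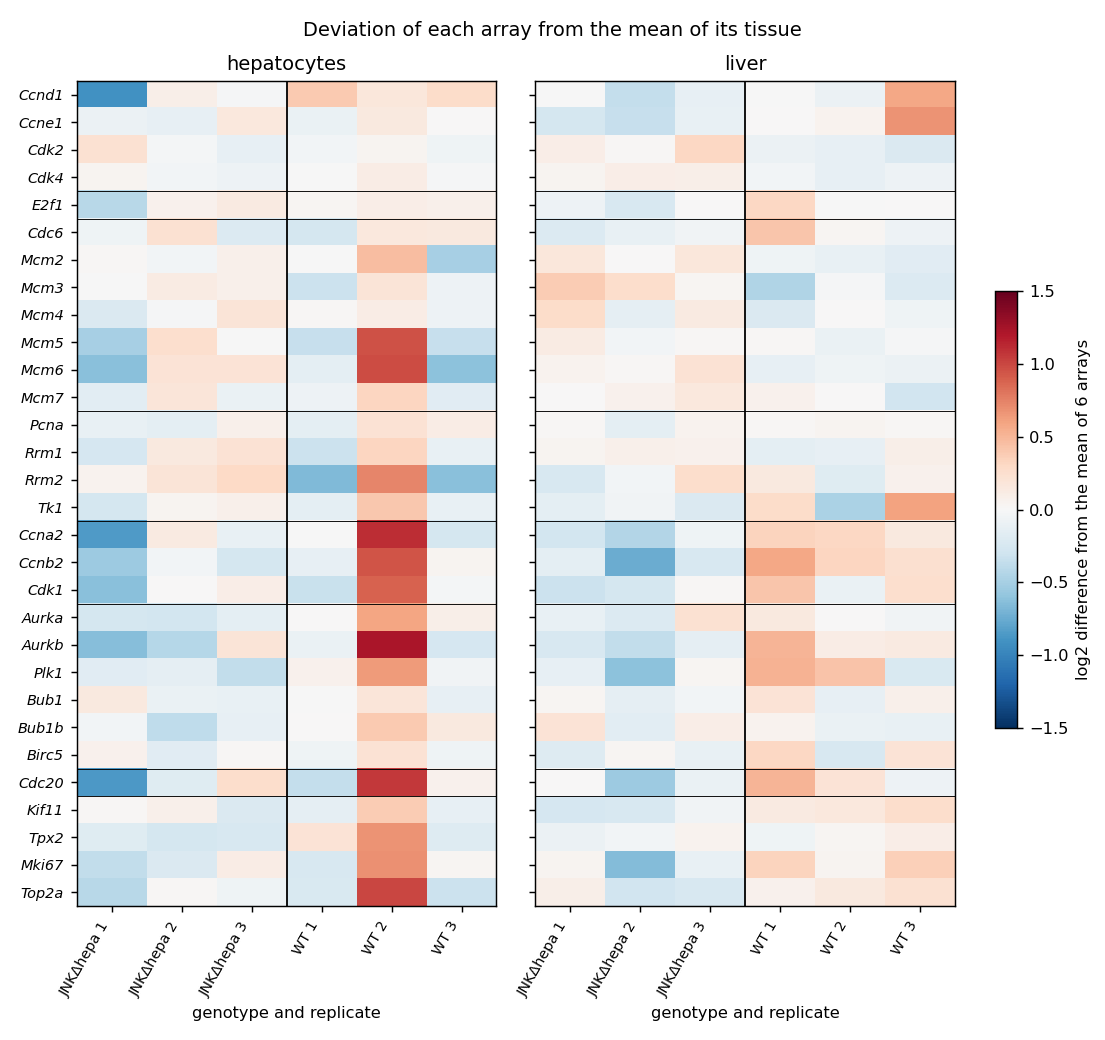
Difference of each array from the mean of the 6 arrays of its tissue (colour, deposited log2 scale, red above and blue below) for the 30 genes, ordered by role, with JNKΔhepa arrays left of WT arrays. The column of WT hepatocyte replicate 2 is red in nearly all rows, and it was the highest hepatocyte array in 24 of the 30 genes.

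Most of these genes gave a signal above the floor of the array even in resting tissue. The floor was set by 1182 probe sets for olfactory and vomeronasal receptors, which liver does not use: its 95th percentile was 2.54 in JNKΔhepa hepatocytes, 2.56 in WT hepatocytes, 2.96 in JNKΔhepa liver and 3.01 in WT liver. The group means of 28 of the 30 genes lay above it in all 4 groups. Some cleared it narrowly, such as Birc5 at 2.58 in JNKΔhepa hepatocytes and Cdc6 at 3.01 in JNKΔhepa liver. Against the limit of each single array, 26, 30 and 29 of the 30 genes were above it on WT hepatocyte arrays 1, 2 and 3. The count in WT hepatocytes may thus depend on the second array. Bub1, a kinase of the spindle checkpoint, was at or below it in JNKΔhepa and in WT hepatocytes. Bub1b, which encodes the checkpoint protein BUBR1, was at or below it in JNKΔhepa hepatocytes and in WT liver. By the same rule 35.8% of all genes were near background in JNKΔhepa hepatocytes, 35.6% in WT hepatocytes, 30.7% in JNKΔhepa liver and 31.4% in WT liver. Against the stricter line of the array median, 11 of the 30 genes were near background in JNKΔhepa hepatocytes, 6 in WT hepatocytes, 13 in JNKΔhepa liver and 11 in WT liver, and these were mainly mitotic genes.

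**Figure D2:**
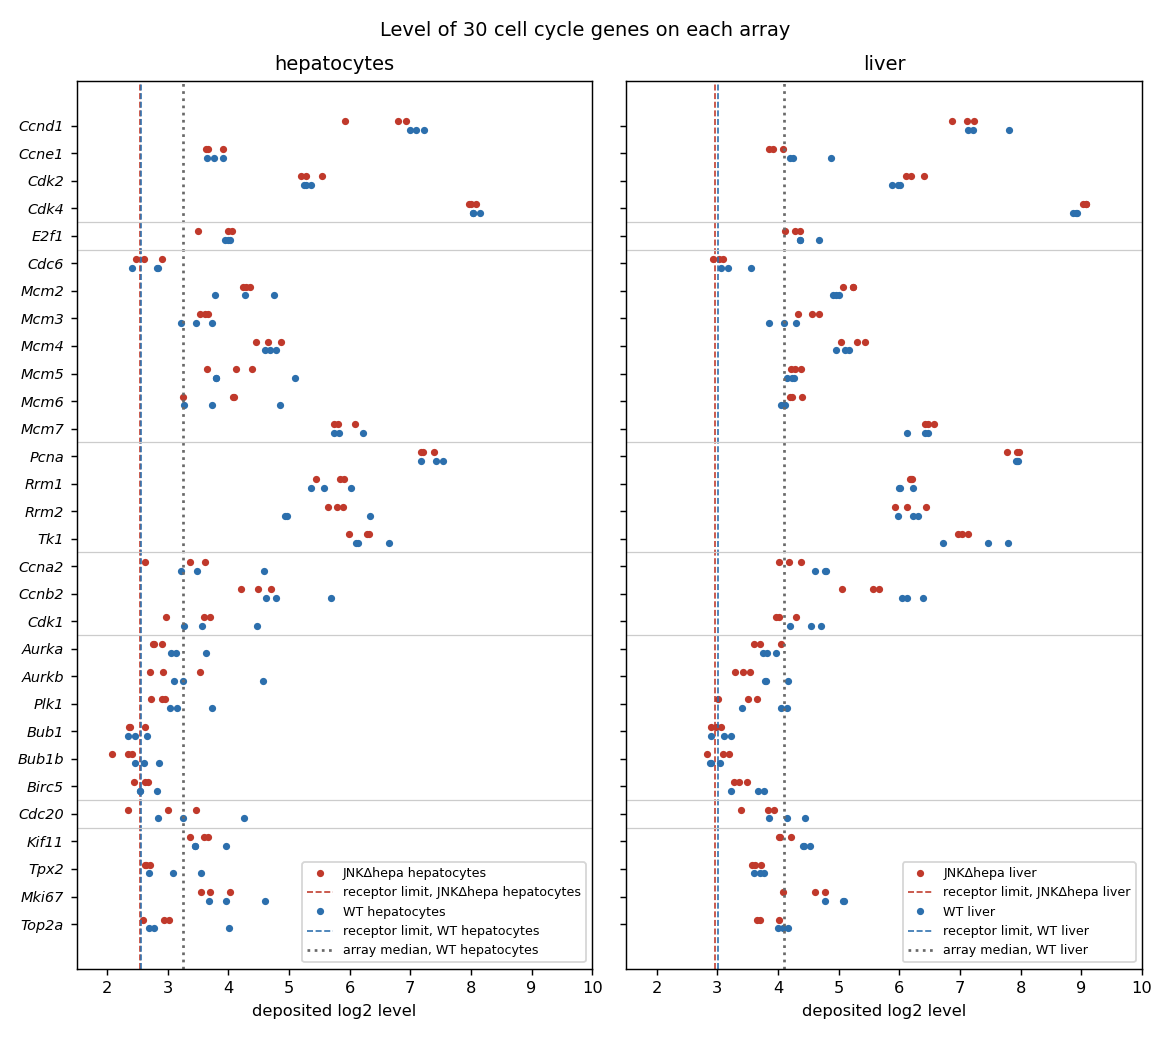
Deposited log2 level (horizontal axis) of each of the 30 genes on every array, hepatocytes on the left and liver on the right, with JNKΔhepa points above WT points. Dashed lines mark the receptor limit of each group, between 2.54 and 3.01, and dotted lines the array median; 28 of the 30 genes had group means above the receptor limit in all groups.

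The early genes are known as targets of E2F factors, and the late genes as targets of the DREAM complex and B-MYB through CHR elements. The promoter sequences below (RefSeq, GRCm38.p6, the 250 bases before the annotated start, 5′ to 3′ on the gene's strand) show 1 licensing gene and 2 genes of G2 and mitosis. Capitals mark matches on either strand to E2F-like letters (TTCCCGC or TTGGCGC), to the cell cycle genes homology region or CHR (TTTGAA or TTCGAA) and to the CCAAT box, and no match overlaps another in the sequences shown. Mcm5 was taken by rule, as 1 of the 4 genes with a window that had the smallest adjusted p in any comparison, and Ccnb2 and Cdk1 were chosen after their values were seen.
Mcm5, chr8:75109259-75109508, plus strand: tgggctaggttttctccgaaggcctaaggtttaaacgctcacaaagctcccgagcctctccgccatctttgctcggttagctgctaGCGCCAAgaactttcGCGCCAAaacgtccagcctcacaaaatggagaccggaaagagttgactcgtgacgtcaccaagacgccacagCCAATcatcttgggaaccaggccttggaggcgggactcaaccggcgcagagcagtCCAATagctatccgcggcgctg
Ccnb2, chr9:70421555-70421804, minus strand: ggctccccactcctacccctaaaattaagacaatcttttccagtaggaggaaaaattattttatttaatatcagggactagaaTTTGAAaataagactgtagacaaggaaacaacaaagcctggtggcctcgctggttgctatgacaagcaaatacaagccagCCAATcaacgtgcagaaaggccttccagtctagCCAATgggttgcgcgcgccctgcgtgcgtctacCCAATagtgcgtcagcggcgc
Cdk1, chr10:69352913-69353162, minus strand: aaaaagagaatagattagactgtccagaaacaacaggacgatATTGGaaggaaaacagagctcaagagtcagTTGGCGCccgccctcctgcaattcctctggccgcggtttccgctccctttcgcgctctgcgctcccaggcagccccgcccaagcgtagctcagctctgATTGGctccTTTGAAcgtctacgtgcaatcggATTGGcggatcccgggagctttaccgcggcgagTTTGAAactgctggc
Mcm5 holds 2 E2F-like matches and 2 CCAAT boxes, Ccnb2 holds 1 CHR and 3 CCAAT boxes, and Cdk1 holds 1 E2F-like match, 2 CHR matches and 3 CCAAT boxes. The windows of Cdk4, Ccne1 and E2f1, the other genes taken by rule, held none of these letters. The E2f1 window appears to hold coding sequence of that gene, so it does not show what the E2f1 promoter holds. E2f1 is still counted among the 14 other genes below. A window was found for 25 of the 30 measured genes. Among 11 genes of G2 and mitosis with a window, 7 held a CHR match (63.6%) and 10 a CCAAT box (90.9%). Of all 27025 genes with a window, 19.6% and 37.5% did. A gene was counted when the window of any of its listed starts held the match. Among the 14 other genes, 2 held a CHR match (14.3%) and 9 a CCAAT box (64.3%). An E2F-like match was in 2 of the 11 genes of G2 and mitosis (18.2%), in 6 of the 14 others (42.9%) and in 6.45% of the 27025 genes. A match of letters is a description and not a site of binding.

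The first comparison asked what loss of JNK did to these genes in hepatocytes. None of the 30 genes passed in JNKΔhepa against WT hepatocytes (limma, Benjamini-Hochberg adjusted p under 0.05 over 18820 genes), where 0.84% of all genes passed. At an unadjusted p under 0.05 there were 5 of the 30, and 12.6% of all genes. The log2 difference was above 0 in 5 genes and below 0 in 25, with a median of -0.13, against -0.0018 for all genes. All 14 genes of G2 and mitosis had a difference below 0, with a median of -0.40. Without the second WT hepatocyte array, 17 of the 30 genes were above 0 and 13 below with a median of 0.02, and the 14 genes of G2 and mitosis split into 5 above 0 and 9 below with a median of -0.12. Leaving out any other hepatocyte array kept 12 to 14 of these 14 genes below 0. Markers of some other liver cells also had values below 0 in the JNKΔhepa hepatocytes, without passing: 8 of 8 Kupffer cell and macrophage markers, 7 of 8 endothelial and 6 of 7 stellate cell markers. The medians of these 3 lists were -0.76, -0.54 and -0.23. An unadjusted limma p under 0.05 was found for 6, 7 and 2 of their markers, beside 12.6% of all genes. Lymphocyte markers split into 5 above 0 and 5 below, and 3 of 4 cholangiocyte, 3 of 5 neutrophil and monocyte, and 2 of 2 erythroid markers were above 0. The mean of the Kupffer cell markers lay between 4.88 and 5.35 on the JNKΔhepa arrays, against 5.29 to 6.00 on the WT arrays. The mean of 10 lymphocyte markers lay between 2.21 and 2.34 on the JNKΔhepa arrays, against 2.24 to 2.36 on the WT arrays. Both ranges lay under the receptor limit. Near background were 6 of the 10 lymphocyte markers in JNKΔhepa hepatocytes and 8 in WT hepatocytes. So were 4 of 5 neutrophil and monocyte markers in each genotype, and 3 and 2 of 4 cholangiocyte markers. The signs of these lists therefore say little about the cells. The part of these cells in the values of the 30 genes was not tested.

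In liver, too, none of the 30 genes passed in JNKΔhepa against WT, where 0.925% of all genes passed. At an unadjusted p under 0.05 there were 5 of the 30, and 12.5% of all genes. The difference was above 0 in 10 genes and below 0 in 20, with a median of -0.14, against 0.02 for all genes. The helicase genes and the mitotic genes lay on different sides of 0: all 6 genes of the MCM2-7 helicase were above 0 with a median of 0.18, and 13 of the 14 genes of G2 and mitosis were below 0 with a median of -0.38. The other genes of the early steps were split: Cdk2 and Cdk4 were above 0, like the helicase, while Cdc6, E2f1, Ccnd1 and Ccne1 were below 0. The clamp and nucleotide genes had 1 above 0 and 3 below. Leaving out any 1 liver array gave 6 of 6 MCM genes above 0 and 12 or 13 of the 14 mitotic genes below. Markers of lymphocytes, which can divide in liver, had 4 of 10 genes above 0 and 6 below, and their mean lay between 3.79 and 3.99 on the JNKΔhepa arrays, against 3.60 to 3.99 on the WT arrays. Their part was not tested. Groups did not overlap in 11 of the 30 genes in liver (5 with every JNKΔhepa array above every WT array and 6 with every one below), where 20.4% of all genes did not overlap, 12.9% above and 7.57% below. In hepatocytes they did not overlap in 4 of the 30, each with every JNKΔhepa array below every WT array, where 14.7% of all genes did not overlap and 7.32% lay below. The precision bounds these values: the 95% interval lay within a 2-fold change in either direction for 25 of the 30 genes in hepatocytes and for 26 in liver.

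**Figure D3:**
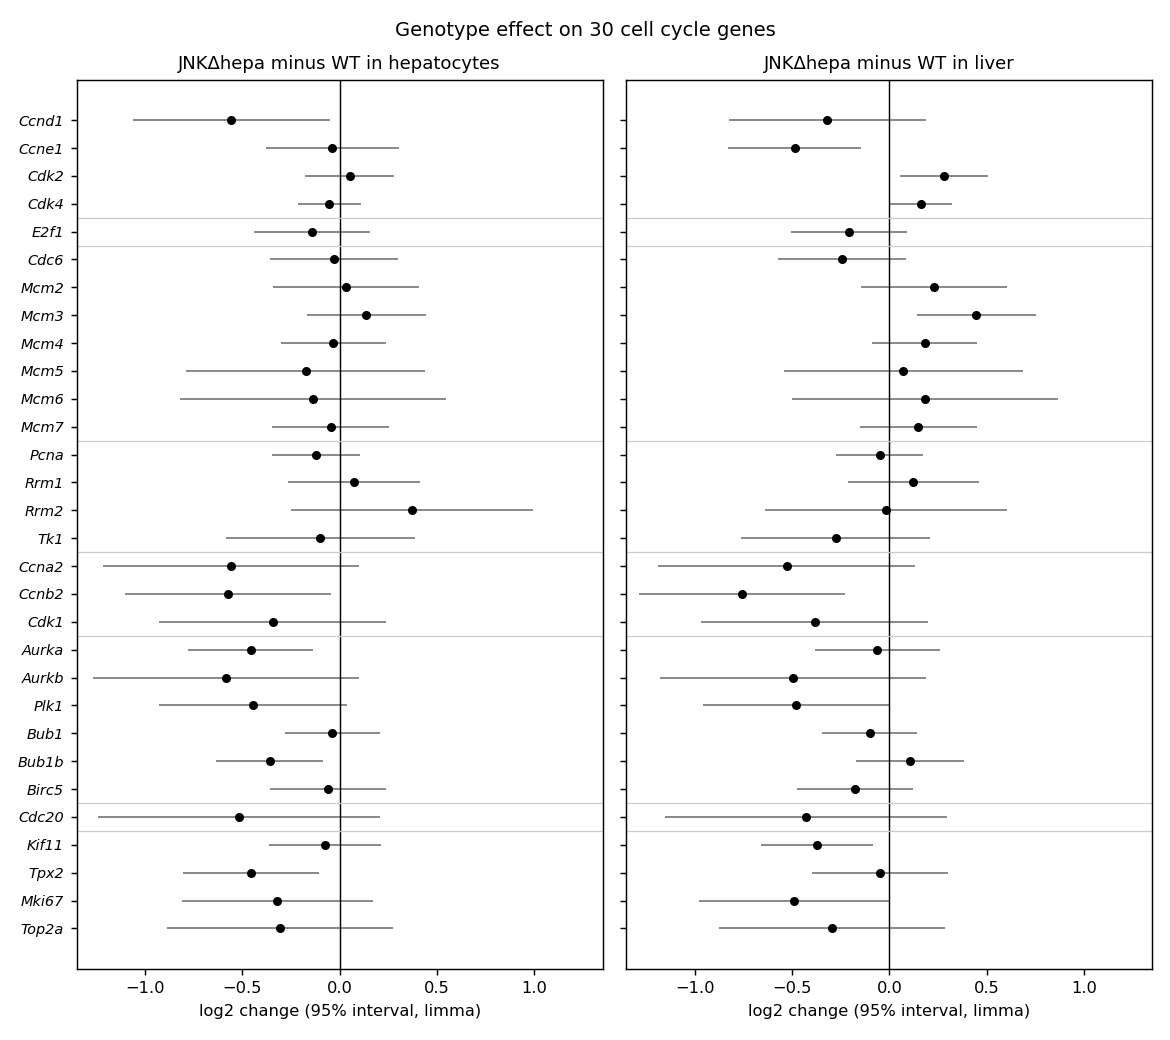
Log2 difference JNKΔhepa minus WT (points) with its 95% interval from limma (bars) for the 30 genes, in hepatocytes on the left and in liver on the right, ordered by role. In liver the 6 MCM genes lie right of 0 and 13 of the 14 genes of G2 and mitosis left of it, and no gene passed the adjusted threshold in either tissue.

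Among the G1 cyclins and kinases, Ccnd1 encodes cyclin D1, the first cyclin of re-entry. It read 5.92, 6.92 and 6.81 in JNKΔhepa hepatocytes, against 7.22, 7.00 and 7.10 in WT hepatocytes. Every JNKΔhepa array was below every WT array, with the first JNKΔhepa array far below the rest (log2 difference -0.56, SE 0.233, limma adjusted p = 0.346). In liver it read 7.23, 6.87 and 7.11 in JNKΔhepa mice, against 7.22, 7.14 and 7.81 in WT mice, and the groups overlapped (log2 difference -0.32, limma adjusted p = 0.653). Without the first JNKΔhepa hepatocyte array the hepatocyte difference of Ccnd1 was -0.24.

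Ccne1 encodes cyclin E1, which drives the entry into S phase with CDK2. It read 3.67, 3.63 and 3.92 in JNKΔhepa hepatocytes, against 3.66, 3.91 and 3.77 in WT hepatocytes. In liver it read 3.92, 3.84 and 4.08 in JNKΔhepa mice, against 4.20, 4.24 and 4.87 in WT mice. The hepatocyte groups overlapped, while all JNKΔhepa livers were below all WT livers; WT liver 3 stood above the other 2 (log2 difference in liver -0.49, SE 0.158, limma adjusted p = 0.199). Without that array the liver difference of Ccne1 was -0.27.

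The kinase genes went the other way in liver. Cdk2 read 6.19, 6.11 and 6.40 in JNKΔhepa livers, against 6.01, 5.98 and 5.89 in WT livers (log2 difference 0.28, SE 0.105, limma adjusted p = 0.277). Cdk4, the partner of cyclin D1, read 9.03, 9.08 and 9.07 in JNKΔhepa livers, against 8.94, 8.85 and 8.91 in WT livers (log2 difference 0.16, limma adjusted p = 0.403). Neither pair of liver groups overlapped, and both genes overlapped between genotypes in hepatocytes, at log2 differences of 0.05 for Cdk2 and -0.05 for Cdk4. E2f1, the only transcription factor of the list that was measured, read 3.50, 3.99 and 4.06 in JNKΔhepa hepatocytes, against 3.95 to 4.02 in WT hepatocytes. It read 4.28, 4.12 and 4.37 in JNKΔhepa livers, against 4.67, 4.36 and 4.37 in WT livers, so that its groups overlapped in both tissues.

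The licensing genes encode CDC6, which loads the helicase onto origins, and the 6 subunits of the MCM2-7 helicase itself. Mcm3 had the smallest adjusted p of the 30 genes in liver, at 4.68, 4.56 and 4.33 in JNKΔhepa livers, against 3.85, 4.29 and 4.09 in WT livers. The groups did not overlap, the gap between them being narrow, and the difference did not pass (log2 difference 0.45, 1.36-fold, SE 0.142, limma adjusted p = 0.190). Mcm2 read 5.23, 5.07 and 5.24 in JNKΔhepa livers, against 5.01, 4.95 and 4.90 in WT livers. Mcm6 read 4.23, 4.20 and 4.40 in JNKΔhepa livers, against 4.05, 4.12 and 4.10 in WT livers. For these 2 subunits, too, every JNKΔhepa liver was above every WT liver, while Mcm4, Mcm5 and Mcm7 overlapped, with log2 differences of 0.18, 0.07 and 0.15.

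In hepatocytes the side of 0 on which the helicase genes lay depended on single arrays. Mcm5 read 3.64, 4.39 and 4.13 in JNKΔhepa hepatocytes, against 3.79, 5.10 and 3.79 in WT hepatocytes. Mcm6 read 3.26, 4.08 and 4.09 in JNKΔhepa hepatocytes, against 3.73, 4.86 and 3.26 in WT hepatocytes. In both genes the second WT array was the highest of the 6, and the other 2 WT arrays lay within or near the JNKΔhepa range. With all arrays 2 of the 6 MCM genes were above 0 and 4 below, with a median of -0.04, and without the second WT array all 6 were above 0, with a median of 0.26. Without the first JNKΔhepa array, which was low in Mcm5 and Mcm6, all 6 were also above 0, with a median of 0.05. Cdc6 read 2.47 to 2.90 in JNKΔhepa hepatocytes and 2.42 to 2.84 in WT hepatocytes, close to the receptor limit.

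Replication also needs the sliding clamp PCNA and the supply of deoxynucleotides by ribonucleotide reductase (Rrm1, Rrm2) and thymidine kinase (Tk1). Rrm2 read 5.65, 5.79 and 5.90 in JNKΔhepa hepatocytes, against 4.93, 6.33 and 4.97 in WT hepatocytes. All JNKΔhepa arrays lay between the low pair and the single high array of the WT group, and the difference did not pass (log2 difference 0.37, SE 0.287, limma adjusted p = 0.672). Without the second WT hepatocyte array, Rrm2 passed at a log2 difference of 0.83 (SE 0.147, limma adjusted p = 0.0165). It was the only call among the 30 genes in that fit, where 2.06% of all genes passed. That array was singled out by its values for these same genes, Rrm2 among them. The call therefore only shows how far the result depends on that array. In liver Rrm2 read 5.92, 6.12 and 6.43 in JNKΔhepa mice, against 6.31, 5.98 and 6.23 in WT mice, a log2 difference of -0.02. The groups of Pcna, Rrm1 and Tk1 overlapped in both tissues. Tk1 spread widely among WT livers, at 7.46, 6.71 and 7.79, against 7.04, 7.14 and 6.97 in JNKΔhepa livers. A dimmer probe set of Tk1 had means of 6.18 in JNKΔhepa and 6.57 in WT livers, and of 5.14 in JNKΔhepa and 5.35 in WT hepatocytes. Its means were thus lower in JNKΔhepa in both tissues, as on the probe set used.

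Cyclin A2, cyclin B2 and CDK1 carry the cell through S phase and G2 into mitosis. Ccnb2 had the largest difference of the 30 genes in liver, at 5.66, 5.06 and 5.56 in JNKΔhepa livers, against 6.38, 6.13 and 6.04 in WT livers. Every JNKΔhepa liver was below every WT liver (log2 difference -0.76, 1.69-fold, SE 0.244, 95% interval -1.29 to -0.23, limma adjusted p = 0.196). In hepatocytes Ccnb2 read 4.20, 4.71 and 4.48 in JNKΔhepa mice, against 4.63, 5.69 and 4.79 in WT mice, where the groups overlapped. The hepatocyte difference was -0.57 (SE 0.244, limma adjusted p = 0.354), and -0.24 without the second WT array. Ccnb2 stayed short of the threshold in liver whichever array was left out, with limma adjusted p between 0.0598 and 0.475.

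Ccna2 read 4.17, 4.01 and 4.38 in JNKΔhepa livers, against 4.78, 4.77 and 4.60 in WT livers, and these groups did not overlap (log2 difference -0.53, limma adjusted p = 0.529). In hepatocytes Ccna2 read 2.63, 3.62 and 3.37 in JNKΔhepa mice, against 3.48, 4.60 and 3.22 in WT mice. Cdk1 read 2.97, 3.60 and 3.69 in JNKΔhepa hepatocytes, against 3.26, 4.47 and 3.56 in WT hepatocytes. For both genes the hepatocyte groups overlapped, with the first JNKΔhepa array lowest and the second WT array highest, and without that WT array the differences were -0.14 for Ccna2 and 0.01 for Cdk1. In liver Cdk1 read 3.97, 4.02 and 4.30 in JNKΔhepa mice, against 4.71, 4.19 and 4.54 in WT mice, with overlap.

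Of the mitotic kinases and checkpoint genes, Aurka, the kinase of centrosome maturation, had the smallest adjusted p of the 30 genes in hepatocytes. It read 2.78, 2.77 and 2.90 in JNKΔhepa hepatocytes, against 3.05, 3.63 and 3.13 in WT hepatocytes (log2 difference -0.46, SE 0.148, limma adjusted p = 0.198), and the difference was -0.28 without the second WT array. Plk1, which drives entry into mitosis, read 2.91, 2.96 and 2.72 in JNKΔhepa hepatocytes, against 3.15, 3.73 and 3.04 in WT hepatocytes. Both genes had every JNKΔhepa array below every WT array, at levels under the array median for most arrays. Bub1b did so too, at 2.42, 2.09 and 2.35 in JNKΔhepa hepatocytes, against 2.47, 2.86 and 2.61 in WT hepatocytes (log2 difference -0.36, limma adjusted p = 0.251), but its JNKΔhepa values lay below the receptor limit. Aurkb, the kinase of the chromosomal passenger complex, read 2.72, 2.92 and 3.54 in JNKΔhepa hepatocytes, against 3.26, 4.58 and 3.10 in WT hepatocytes. Its groups overlapped there. Without the second WT array the hepatocyte differences were -0.12 for Aurkb, -0.23 for Plk1 and -0.25 for Bub1b. In liver the Aurkb groups did not overlap, at 3.42, 3.29 and 3.53 in JNKΔhepa mice, against 4.17, 3.78 and 3.79 in WT mice (log2 difference -0.50, limma adjusted p = 0.577). Birc5, which encodes survivin, and Bub1 overlapped in both tissues, as did Cdc20, the activator of the anaphase promoting complex. Cdc20 had a hepatocyte log2 difference of -0.52, and of -0.11 without the second WT array.

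Among the spindle and chromosome genes, Kif11 encodes the motor that separates the spindle poles. It read 4.02, 4.03 and 4.21 in JNKΔhepa livers, against 4.40, 4.43 and 4.53 in WT livers. The liver groups did not overlap (log2 difference -0.37, SE 0.133, limma adjusted p = 0.251), and the hepatocyte difference was -0.08. Mki67, the gene of the proliferation antigen Ki-67, read 4.77, 4.08 and 4.62 in JNKΔhepa livers, against 5.06, 4.78 and 5.09 in WT livers, with the highest JNKΔhepa array just below the lowest WT array (log2 difference -0.49, limma adjusted p = 0.3995). In hepatocytes Mki67 read 3.55, 3.70 and 4.03 in JNKΔhepa mice, against 3.68, 4.61 and 3.96 in WT mice, and overlapped. Tpx2, a spindle assembly factor that activates Aurora A, read 2.70, 2.62 and 2.64 in JNKΔhepa hepatocytes, against 3.09, 3.56 and 2.68 in WT hepatocytes (log2 difference -0.46, SE 0.160, limma adjusted p = 0.247). WT array 3 lay within the JNKΔhepa range, and without that array Tpx2 passed at -0.67 (limma adjusted p = 0.0483), where 0.425% of all genes passed. Without the second WT array, which was its highest, Tpx2 was at -0.23 and did not pass (limma adjusted p = 0.411). Top2a, the topoisomerase that untangles chromosomes, had log2 differences of -0.31 in hepatocytes and -0.30 in liver, and of 0.12 in hepatocytes without the second WT array. Without that array Kif11 was at 0.09 in hepatocytes and Mki67 at -0.06.

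The next comparison asked whether the effect of genotype differed between the tissues. None of the 30 genes passed the interaction test, where 0.0106% of all genes passed, namely Ifi44l and Plet1. At an unadjusted p under 0.05 there was 1 of the 30, and 7.22% of all genes. That gene was Bub1b, with an effect of -0.36 in hepatocytes and 0.10 in liver (interaction -0.46, SE 0.180, limma adjusted p = 0.618). Ccne1 had an effect of -0.04 in hepatocytes and -0.49 in liver (interaction 0.45, SE 0.223, limma adjusted p = 0.715). A difference between the tissues was thus not detectable for any of these genes, and the 95% interval lay within a 2-fold difference of effects for 25 of the 30. Over the 30 genes the interaction was above 0 in 12 and below 0 in 18, with a median of -0.06, and without the second WT hepatocyte array it was above 0 in 21 and below 0 in 9, with a median of 0.17. The smallest adjusted p without that array was that of Rrm2 (interaction 0.85, limma adjusted p = 0.169).

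Around the 30 genes stood 130 further genes of the cycle, of which 125 were measured. Of these, 1 passed in each genotype comparison, beside 0.84% of all genes in hepatocytes and 0.925% in liver, and it was Pttg1 both times. Pttg1 encodes securin, which holds back separase until anaphase. It read 4.19, 4.51 and 4.24 in JNKΔhepa hepatocytes, against 5.64, 6.20 and 6.20 in WT hepatocytes. It read 4.33, 3.95 and 4.56 in JNKΔhepa livers, against 6.53, 6.55 and 6.71 in WT livers. The groups were far apart in both tissues, and Pttg1 fell by 1.70 on the log2 scale in hepatocytes (SE 0.172, limma adjusted p = 0.000458) and by 2.31 in liver (SE 0.172, limma adjusted p = 3.75e-05). The call was kept whichever array was left out, with a highest limma adjusted p of 0.00466 in hepatocytes and 0.000395 in liver. Pttg1 lies on chromosome 11, as does Mapk9, the gene deleted in these mice, with 69 protein-coding genes between them by RefSeq. Of the 54 of these that were measured, Timd2 alone passed, and it rose in both tissues (log2 difference 0.59 in hepatocytes and 0.64 in liver, limma adjusted p = 0.00525 and 0.00367). Any part of this position in the level of Pttg1 was not tested. The 5 genes of the list on chromosome 11 (Cdc6, Tk1, Aurkb, Birc5 and Top2a) did not pass.

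**Figure D4:**
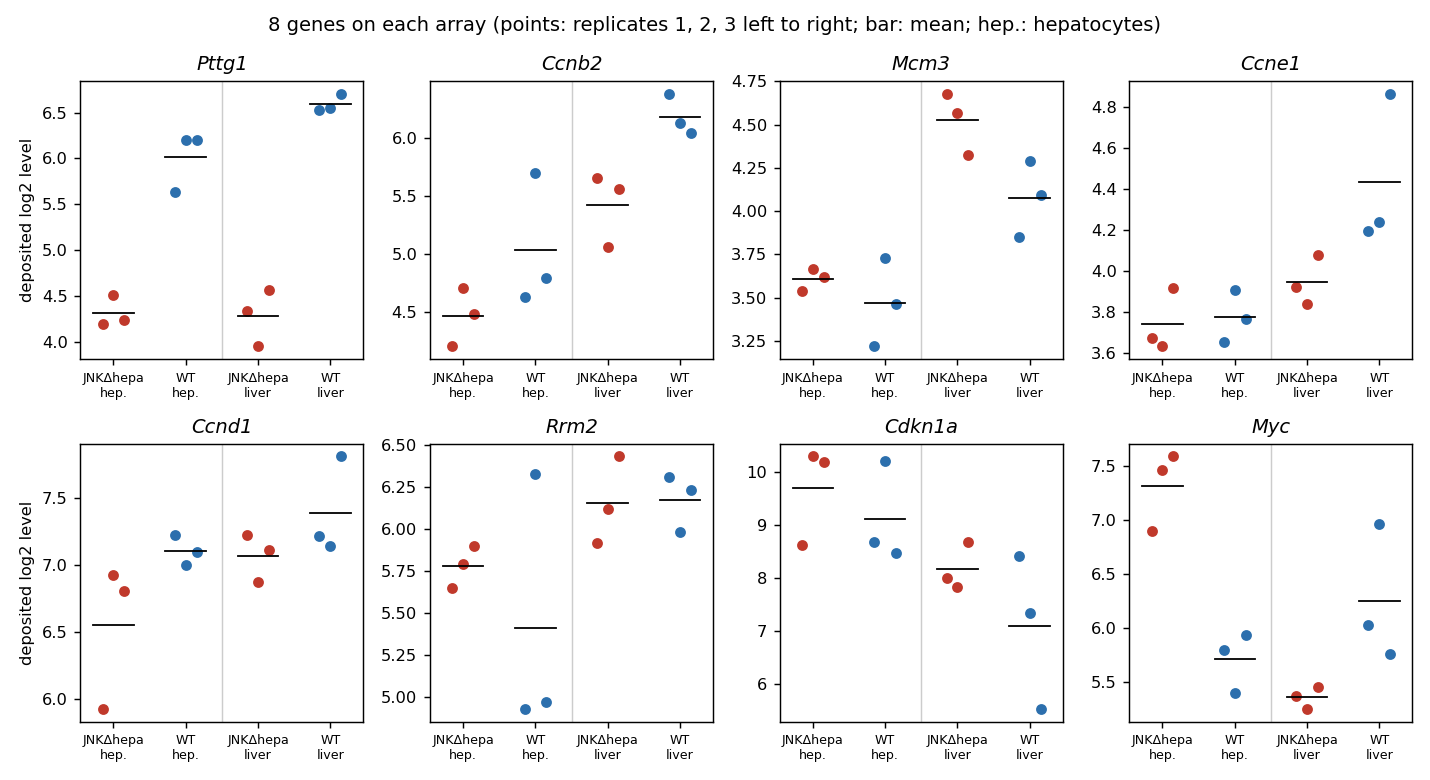
Deposited log2 level (vertical axis) of 8 genes on each array, in JNKΔhepa and WT hepatocytes and then in JNKΔhepa and WT liver (points are replicates 1, 2 and 3 from left to right, bars are group means). Pttg1 separates the genotypes in both tissues, while Ccnb2, Mcm3 and Ccne1 do so in liver without passing the adjusted threshold, and Rrm2 shows the high second WT hepatocyte array at 6.33.

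The other lists of the cycle held no call in the genotype comparisons. The 7 measured CDK inhibitors had 2 genes above 0 and 5 below in hepatocytes, and 3 above and 4 below in liver. The smallest adjusted p among them was that of Cdkn2c, the inhibitor p18, with 4.43, 4.82 and 4.89 in JNKΔhepa hepatocytes, against 5.17, 5.23 and 5.31 in WT hepatocytes (log2 difference -0.52, limma adjusted p = 0.0653). Cdkn1a, the inhibitor p21 that p53 induces, overlapped between genotypes in both tissues. It read 8.62, 10.3 and 10.2 in JNKΔhepa hepatocytes, against 8.67, 10.2 and 8.48 in WT hepatocytes, and 8.00, 7.83 and 8.67 in JNKΔhepa livers, against 8.42, 7.34 and 5.52 in WT livers. The second WT hepatocyte array, highest for most cycle genes, was thus also the only WT hepatocyte array above 10 for Cdkn1a, while the mean of 8 Kupffer cell and macrophage markers on it was 5.29, against 6.00 and 5.90 on the other 2 WT hepatocyte arrays. Their part in the level of the 30 genes was not tested.

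Among 33 genes of the replication machinery, 24 were above 0 and 9 below in liver, and 13 above and 20 below in hepatocytes, or 20 above and 13 below without the second WT hepatocyte array. The gene with the smallest adjusted p in liver was Gins3, a subunit of the GINS complex of the replicative helicase (log2 difference 0.43, limma adjusted p = 0.154), and in hepatocytes it was Cdc7, the kinase that fires origins (limma adjusted p = 0.184), which was under the receptor limit in all 4 groups. Among 39 further genes of mitosis and cytokinesis, 32 were below 0 in hepatocytes and 30 in liver, with medians of -0.17 and -0.16. Without the second WT hepatocyte array the hepatocyte count was 17 above 0 and 22 below, with a median of -0.03. Anln, which encodes the cytokinesis protein anillin, had the smallest adjusted p of them in both tissues (limma adjusted p = 0.118 in hepatocytes and 0.0903 in liver), but its mean was under the receptor limit in all groups except WT liver, so no size is given. In the list of RB, E2F and DREAM genes, E2f8, a repressor of the E2F family, read 5.72, 5.91 and 6.36 in JNKΔhepa hepatocytes, against 4.89, 5.08 and 5.25 in WT hepatocytes. These groups did not overlap and the difference did not pass (log2 difference 0.93, limma adjusted p = 0.0845). In liver the list was led by E2f4 (0.25, limma adjusted p = 0.225). The other cyclins and kinases were led by Ccnd2 in hepatocytes (-0.34, limma adjusted p = 0.257) and by Cdk7 in liver (0.21, limma adjusted p = 0.543), and the CDK inhibitors in liver by Cdkn2a, which was under the receptor limit in all 4 groups (limma adjusted p = 0.462).

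Of the regulators upstream, Jun, the gene of the JNK substrate, fell by 0.84 on the log2 scale in hepatocytes (limma adjusted p = 0.0135), at 7.98, 7.66 and 7.81 in JNKΔhepa mice, against 8.74, 8.36 and 8.86 in WT mice. Jun also fell in liver, by 0.74 (limma adjusted p = 0.0264), at 5.79, 5.75 and 5.86 in JNKΔhepa mice, against 6.38, 6.79 and 6.45 in WT mice. Myc, whose product drives growth and entry into the cycle, rose by 1.60 in hepatocytes (limma adjusted p = 0.0125), at 6.89, 7.46 and 7.59 in JNKΔhepa mice, against 5.80, 5.40 and 5.93 in WT mice. None of the 30 genes passed in the hepatocyte comparison in which both of these did.

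The last comparison set hepatocytes against the liver they came from, within each genotype, after all 12 arrays had been quantile-normalised together; levels in this paragraph are on that scale. In JNKΔhepa mice 3 of the 30 genes passed, where 29.9% of all genes did. Cdk4 fell (8.31 ± 0.05 in hepatocytes and 8.79 ± 0.04 in liver, SD, n = 3 each, log2 difference -0.48, limma adjusted p = 0.000421), but with each array centred the difference was -0.17 and did not pass (limma adjusted p = 0.0791). Ccne1 rose on this scale, though not on the deposited one (4.18 ± 0.14 in hepatocytes and 3.52 ± 0.12 in liver, SD, n = 3 each, log2 difference 0.66, limma adjusted p = 0.00688, and -0.21 on the deposited scale). E2f1 rose as well on this scale (4.29 ± 0.28 in hepatocytes and 3.82 ± 0.13 in liver, SD, n = 3 each, log2 difference 0.47, limma adjusted p = 0.0186, and -0.41 on the deposited scale). The E2f1 call was lost without JNKΔhepa liver array 2, hepatocyte array 2 or hepatocyte array 3 (limma adjusted p of 0.0708 to 0.0769). In WT mice 3 of the 30 passed, where 28.4% of all genes did. Cdk4 fell by 0.25 there (limma adjusted p = 0.0221), where the difference after centring each array was 0.0087. The helicase subunits Mcm4 and Mcm5 rose by 0.39 and 0.84 (limma adjusted p = 0.0351 and 0.0359), where Mcm4 was at -0.39 and Mcm5 at 0.01 on the deposited scale. Hepatocytes and liver of a mouse are paired, and with the mouse as a block 1 of the 30 genes passed in WT mice, Mcm5 (limma adjusted p = 0.0421, with 26.0% of all genes called), while Cdk4 and Mcm4 did not (limma adjusted p = 0.066 and 0.0541). For Mcm5 the size rested on the second WT hepatocyte array, which read 5.47 beside 4.27 and 4.17 on the other 2, and without it the difference was 0.43 and did not pass (limma adjusted p = 0.0758). The Mcm5 call was also lost without any 1 WT liver array, that of Mcm4 without WT liver array 1 or 3 or WT hepatocyte array 1 or 2, and that of Cdk4 without WT liver array 1 or 3 or WT hepatocyte array 1 or 3 (limma adjusted p of 0.057 to 0.117 over these fits).

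These directions depend on how the tissues are scaled. On the deposited values 24 of the 30 genes fell and none rose in JNKΔhepa mice, where 85.9% of all genes fell, and 25 fell and none rose in WT mice, where 85.6% of all genes fell. The whole scale is shifted there: the median of all genes was -0.60 in JNKΔhepa and -0.58 in WT mice. With each array centred on its median, 6 of the 30 rose in JNKΔhepa and 7 in WT mice and none fell, where 50.0% and 46.6% of all genes rose, at an all-gene median of 0.28 and 0.26. Of all calls, 47.7% were higher in hepatocytes in JNKΔhepa mice and 47.9% in WT mice after joint normalisation, 0.712% and 0.696% on the deposited values, and 82.8% and 82.6% after centring. Relative to the median of all genes, the median of the 30 genes was 0.10 in JNKΔhepa mice after joint normalisation and -0.06 under each of the other scalings, and in WT mice it was 0.10 and -0.02. Markers of several other cell types moved far more, while the 2 measured erythroid markers stood at 0.20 in JNKΔhepa and -0.11 in WT mice after joint normalisation. The median of 9 hepatocyte markers, relative to all genes, was 0.02 in JNKΔhepa and -0.02 in WT mice after joint normalisation. Under each of the other scalings it was 0.49 and 0.41. The median of 7 stellate cell markers lay between -2.05 and -1.91 relative to all genes in JNKΔhepa mice and between -1.97 and -1.83 in WT mice, and that of 8 Kupffer cell and macrophage markers between -1.91 and -1.86 in JNKΔhepa mice and between -1.24 and -1.20 in WT mice. The part of lost non-parenchymal cells in the values of the 30 genes was not tested.

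**Figure D5:**
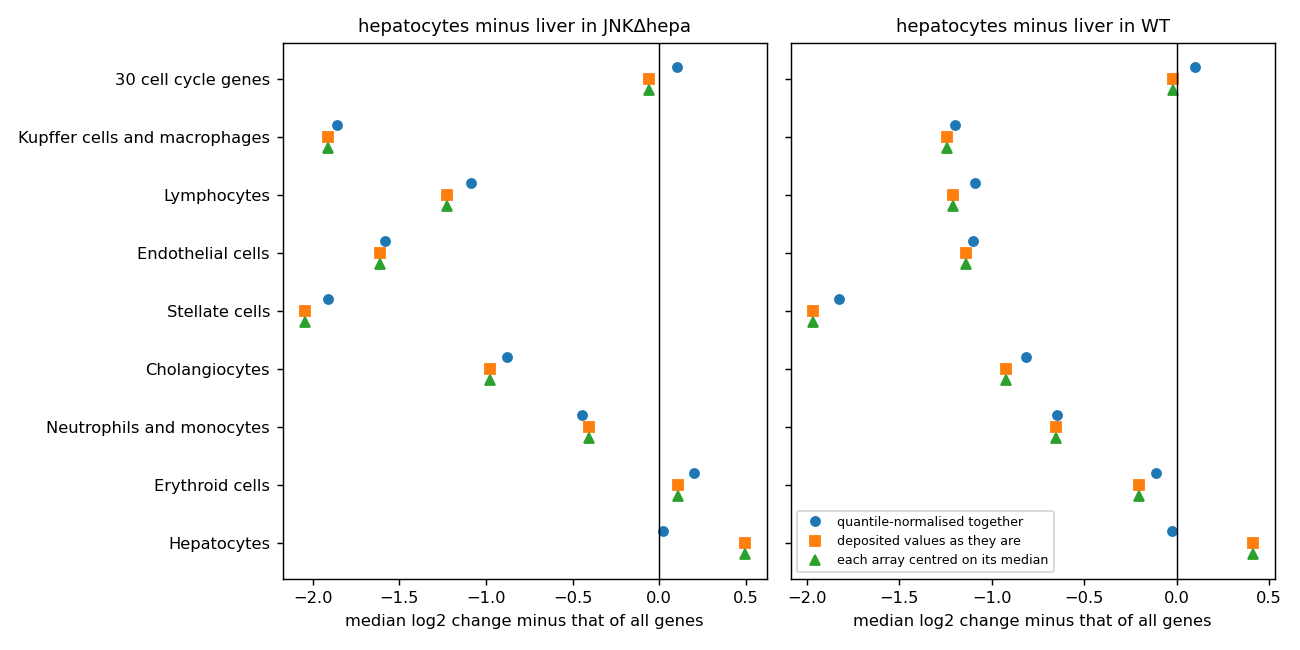
Median log2 change, hepatocytes minus liver, of the 30 genes and of 8 marker lists minus the median of all genes (horizontal axis), in JNKΔhepa mice on the left and WT mice on the right, under 3 scalings of the arrays. The 30 genes lie between -0.06 and 0.10 of all genes, while stellate cell markers lie between -2.05 and -1.83.

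Of the other cycle genes in the tissue comparison, 19 of 125 rose and 18 fell in JNKΔhepa mice after joint normalisation, where 14.3% of all genes rose and 15.6% fell. In WT mice 22 rose and 11 fell, where 13.6% of all genes rose and 14.8% fell. Ccnd2, the gene of cyclin D2, fell in both genotypes (log2 difference -0.89 in JNKΔhepa and -0.80 in WT mice, limma adjusted p = 0.00026 and 0.000698). Kif23, the gene of a kinesin of the cytokinesis midbody, fell as well (limma adjusted p = 0.000139 in JNKΔhepa and 0.00129 in WT mice), but it was under the receptor limit on all 6 hepatocyte arrays, so no size is given. Ccng2, the gene of cyclin G2, which marks cells leaving the cycle, rose in both (1.07 in JNKΔhepa and 1.32 in WT mice, limma adjusted p = 0.00208 and 0.000585). Cdkn1a rose by 2.05 in JNKΔhepa and by 2.60 in WT mice (limma adjusted p = 0.0351 and 0.0119). Mcm10, which recruits polymerases to the opened origin, rose by 1.19 in JNKΔhepa mice (limma adjusted p = 0.000184) and had a difference of 0.41 in WT mice (limma adjusted p = 0.0838). On the deposited scale, which is shifted between the tissues, the mean of Mcm10 in WT mice was lower in hepatocytes than in liver. The other genes named in this paragraph are given after joint normalisation only, and their sizes may depend on the scaling.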

How the data were processed

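RNA of each of the 12 samples was read on its own array. The authors deposited log2 values, made by RMA per the submitters' processing notes; further details of that step are not stated. Of 35556 probe sets, 21218 carried 1 symbol in the platform annotation, 1881 several and 12457 none. The brightest of the probe sets with 1 symbol stood for a gene. Group means were fitted to all 12 arrays with limma 3.58.1 (lmFit and eBayes, R 4.3.3), and p-values were adjusted by Benjamini-Hochberg over 18820 genes with a threshold of 0.05. Deposited values were used for the genotype comparisons, and the 12 arrays were quantile-normalised together for the tissue comparisons. The number of arrays limits the precision. Tables and plots were made in Python 3.11.15 with pandas 2.3.3 and matplotlib 3.10.9. The fit was tested on simulated data.

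The 30 genes, the further lists and the marker lists were chosen with earlier results of these data known. All measured genes of the list may be named; of each further list, up to 4 passing genes in order of p, or the gene of smallest p where none passed; Timd2, Ifi44l and Plet1 were named after their values were seen. Arrays of a group are separate mice, and hepatocyte and liver arrays with the same number are the same mouse by its label: their deviations from the group means correlated at -0.013 to 0.098. Across genotypes only a number is shared. Alternatives were the scaling, the filter on dim genes, the mean of all probe sets, other eBayes settings, array weights, the mouse or number as a block, each tissue alone, and leaving out each array.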

Additional observations from a re-analysis of the deposited data

Results flagged for a closer look

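Mcm10, which acts beside the replicative helicase, read 5.48, 5.07 and 5.10 in JNKΔhepa hepatocytes, against 4.86, 4.98 and 4.90 in WT hepatocytes, so every JNKΔhepa array was above every WT array. In liver every JNKΔhepa array was below every WT array, at 4.89, 4.77 and 4.88 in JNKΔhepa mice, against 4.93, 5.68 and 5.18 in WT mice. The log2 differences were 0.31 in hepatocytes and -0.42 in liver, and the test of their difference did not pass (0.72, SE 0.229, limma adjusted p = 0.538).

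Myc likewise lay above WT on every JNKΔhepa hepatocyte array and below WT on every JNKΔhepa liver array, where it read 5.37, 5.25 and 5.45, against 6.03, 6.96 and 5.76 in WT liver. The log2 differences were 1.60 in hepatocytes and -0.89 in liver, and the test of their difference did not pass (2.49, SE 0.371, limma adjusted p = 0.073).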

How the results depend on the processing

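In liver and in the interaction no gene of the 30 passed under any alternative; the smallest limma adjusted p was 0.0598 and 0.169. In hepatocytes leaving out 1 array gave 0 to 1 calls. With the replicate number as a block both genotype comparisons, and with the mouse as a block the interaction, held 0 calls; the mouse as a fixed block left 1 in the WT tissue comparison and changed no other count of the 30 genes. The tissue comparisons held 3 calls each: 25 in WT mice on the deposited values, 7 after centring and 1 to 5 when 1 array was left out, and 24 in JNKΔhepa mice on the deposited values, 6 after centring, 5 with array weights and 2 to 5 when 1 array was left out. Directions turned for Cdk4 in WT mice after centring (0.0087), and on the deposited values for Mcm4 in WT mice (-0.39), Ccne1 in JNKΔhepa mice (-0.21) and E2f1 in JNKΔhepa mice (-0.41), since the scaling shifts all genes. With the array median as the limit up to 13 genes were near background in a group, against up to 2 by the receptor limit. Over all genes, calls in liver numbered 174, with 408 under array weights, 29 with the number as a block and 80 to 225 when 1 array was left out. In hepatocytes they numbered 158, with 80 under that block, 77 with the tissue alone and 61 to 387 when 1 array was left out. The interaction had 2, with 4 under array weights and 1 to 7 when 1 array was left out. The tissue comparison had 5619 in JNKΔhepa and 5336 in WT mice, with 16282 and 16231 on the deposited values and 11365 and 10626 after centring. Causes other than scaling and fewer arrays were not tested. The 3 mice a genotype limit what could be seen.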

Other observations

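The genes of cohesion, the anaphase promoting complex and the checkpoint, a list that holds Pttg1, lay mostly above 0 where the other genes of mitosis lay below. Of its 21 measured genes, 14 were above 0 and 7 below in hepatocytes, with a median log2 difference of 0.08, and 16 were above 0 and 5 below in liver, with a median of 0.06. The contrast in hepatocytes was smaller without the second WT hepatocyte array. The 39 further genes of mitosis and cytokinesis then had 17 above 0 and 22 below, with a median of -0.03. The cohesion list kept 14 above 0 and 7 below, with a median of 0.07. Only Pttg1 passed (limma with Benjamini-Hochberg adjustment).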
